A study of Mus musculus with 12 samples.

Results

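The genes described here encode the proteins that start and extend polypeptide chains on the ribosome: the eukaryotic initiation factors (symbols beginning Eif and a digit) and elongation factors (symbols beginning Eef1 or Eef2). Members were the genes with a probe set that carries such a symbol and no other, and the X- and Y-linked pair Eif2s3x and Eif2s3y was left out. There were 53 of them, 47 of initiation and 6 of elongation, among 20752 genes with a probe set of a single symbol. They held 141 of 38130 such probe sets. For each gene the probe set of highest mean RMA value stood for it, and all 53 representatives lay above the limit for dim signal and were tested, as were 13203 genes in all. A further 17 probe sets carry a translation factor symbol together with another symbol and stayed out, so that Eef1a1, Eef1g, Eif1, Eif3j1 and Eif4a3 are not members.

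The shock group received footshocks and the female group was exposed to a female mouse. In both groups PABPC1, the cytoplasmic poly(A)-binding protein, was expressed with a FLAG tag from the fos promoter in the basolateral amygdala, a region that takes part in learning about aversive and rewarding events. The fos promoter is one that neuronal activity turns on, so the tag marks cells that were active, and RNA was recovered by immunoprecipitation against it. Each group had 3 arrays, deposited both as RMA values (log2) and as MAS5 intensities, and there was no group without a stimulus; the sources used here do not give strain, age or sex of the mice. A sample was a pool of 2 mice, and the design note gives 3 mice for a group, so arrays of a group could share mice and every test below measures the spread between arrays. The number of arrays limits the precision of every value.

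Initiation begins with a small ribosomal subunit that carries the initiator tRNA, brought by eIF2 in its GTP-bound form. The subunit is recruited to the capped mRNA by eIF3 and by eIF4F, the complex of the cap-binding eIF4E, the helicase eIF4A and the scaffold eIF4G. Stress kinases that phosphorylate eIF2 and block its recycling by eIF2B lower initiation, and eIF4E-binding proteins do so by holding eIF4E. In elongation, eEF1A delivers aminoacyl-tRNA, the eEF1B subunits reload it with GTP and eEF2 moves the ribosome by a codon, unless eEF2 kinase phosphorylates it. In neurons these steps are known as control points of the protein synthesis that long-lasting synaptic change and memory need.

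Of the 53 members, 4 were higher and 6 lower in shock than in female, and 43 did not pass the test (limma on all tested probe sets, Benjamini-Hochberg adjusted p under 0.05). Those higher were Eif2ak3, Eif2d, Eif5a2 and Eef2k, and those lower were Eef1a2, Eef1d, Eif3k, Eif3b, Eif4g1 and Eif1b. The share called, 18.9%, lay close to the 20.0% of all tested genes that were called, 10.6% higher and 9.4% lower in shock. The groups did not overlap for 28 members, against 48.7% of all tested genes, which is 15 members with every shock array above and 13 with every shock array below the female arrays. Sizes were small: 48 members differed by less than 0.5 (log2), and the median size was 0.24, against 0.21 over all tested genes. For 29 members the 95% interval of the difference lay within 0.5 of 0 on both sides. The median difference, shock minus female, was 0.087 over the initiation genes and -0.29 over the elongation genes, against 0.061 over all tested genes. Without female replicate 2 these were 0.043 for initiation and -0.22 for elongation, and the median over all tested genes was not taken without that array. The initiation median is therefore not read as set apart from that of all genes. The elongation median covers 6 genes and changed sign in a fit given below, so it is not read as set apart either. In RNA pulled down from many cells together, fewer cells of a type, less RNA per cell and less RNA recovered with the tag cannot be told apart.

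**Figure D1:**
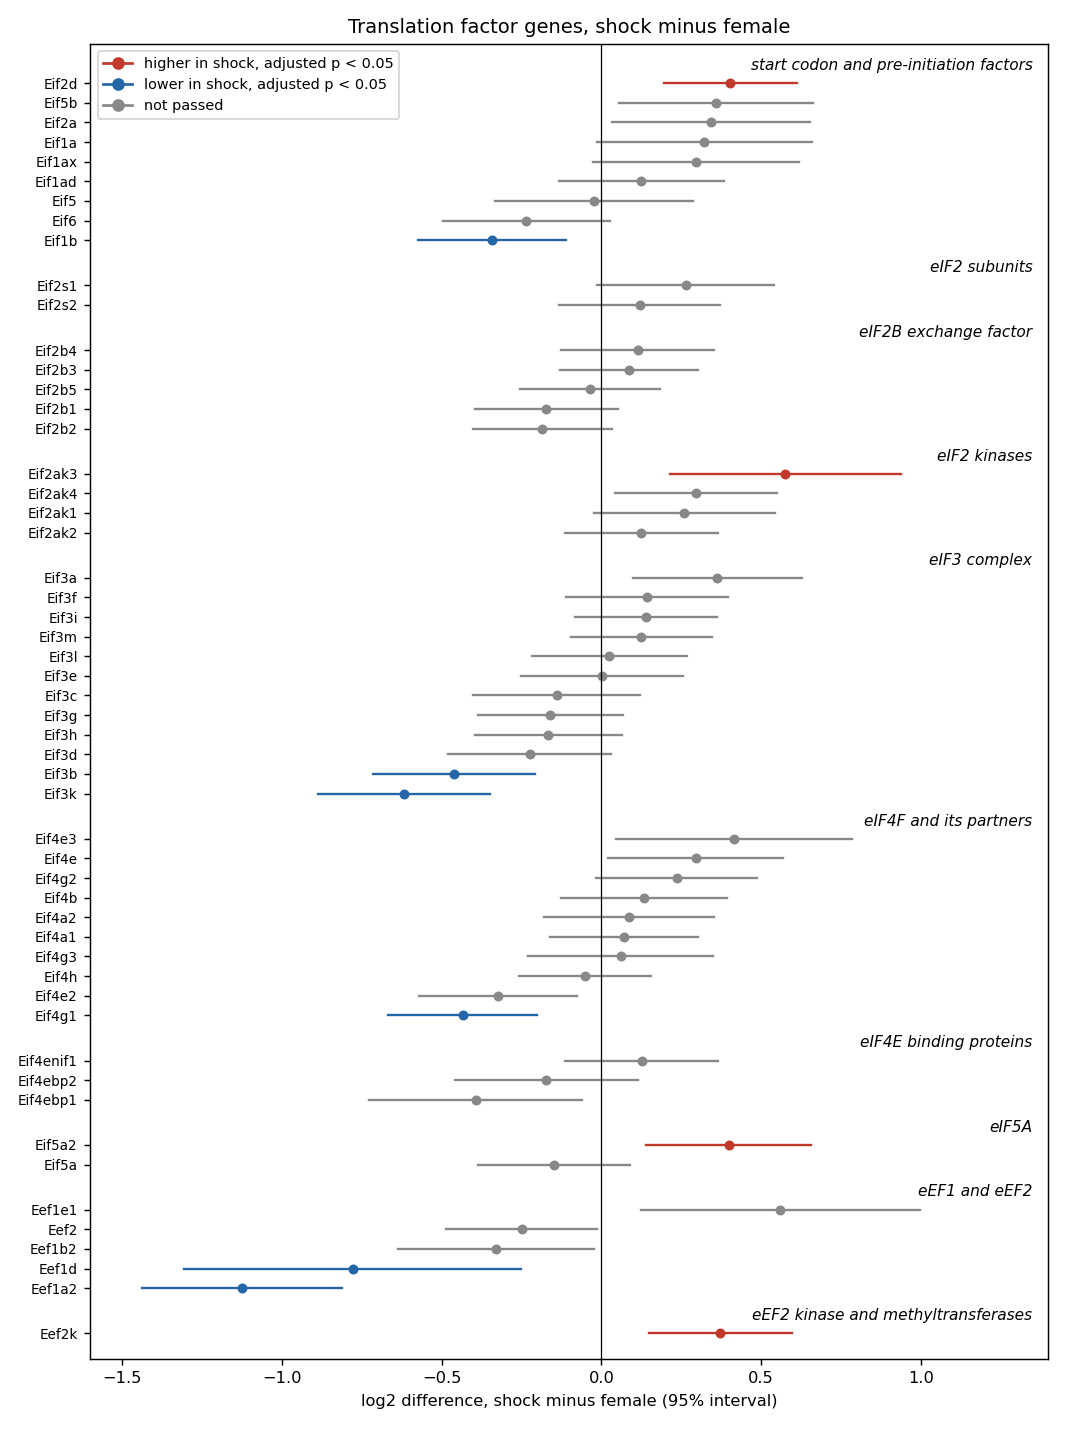
Difference between shock and female in the RMA value (log2, horizontal axis) of each of the 53 translation factor genes, grouped by role. Points are differences from the limma fit on 3 shock and 3 female arrays, and bars are 95% intervals. Red marks the 4 genes higher in shock and blue the 6 lower in shock; Eef1a2, at -1.12, lies farthest from 0.

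Technical measures moved with the groups. Each array's 5' to 3' signal, taken as the median gap between a gene's farthest upstream and farthest downstream probe sets in 2787 genes, lay between -1.01 and -0.88 in shock and between -0.77 and -0.48 in female (log2), and was highest in female replicate 2. In the Gapdh control probe sets the 3' one was brighter than the 5' one by 4.14 to 4.64 in shock and by 2.52 to 3.36 in female. With that signal as a covariate in the fit no member was called, nor was any of the tested genes as represented here, although 9 of the 10 called members kept their sign. Its squared correlation with the group was 0.658, and its part in the differences cannot be told apart from that of the stimulus. All 12 neuronal markers listed were above the limit for dim signal. The mean RMA value over 4 general ones ran from 11.82 to 11.88 in shock and from 11.97 to 12.04 in female. Of these Tubb3 was called lower in shock at -0.77, while Snap25 (0.096), Syt1 (0.086) and Rbfox3 (-0.020) were not called. Over 5 markers of excitatory neurons the mean RMA value ran from 9.37 to 9.48 in shock and from 9.02 to 9.50 in female. That mean hides opposite differences. The 2 called higher in shock were Slc17a6 at 0.49 and Rspo2 at 0.95, and the 2 lower were Slc17a7 at -0.98 and Camk2a at -0.47. Over 3 markers of inhibitory neurons the mean RMA value ran from 11.48 to 11.59 in shock and from 11.28 to 11.36 in female, with Gad1 called higher. The mean RMA value over 5 oligodendrocyte markers ran from 9.98 to 10.27 in shock and from 10.38 to 10.98 in female, with 2 of 5 called lower in shock. Over 5 vessel markers it ran from 6.57 to 6.62 in shock and from 6.86 to 7.27 in female, with 2 of 4 tested called lower in shock. Over 5 microglial markers it ran from 7.13 to 7.21 in shock and from 7.23 to 7.77 in female, with 1 of 4 tested called lower in shock, whereas 5 astrocyte markers ran from 10.10 to 10.25 in shock and from 9.84 to 10.39 in female with none called. No marker was at 0, since RMA gives every probe set a value; C1qa and Pecam1 were below the limit for dim signal. The part of these cells in the differences below was not tested.

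Female replicate 2 stood apart in the members as it did over all genes. It held the lowest or the highest of the 6 values for 64.2% of the members and for 68.2% of all tested genes. Among initiation genes its median deviation from the gene's mean was -0.13 (log2), while the other arrays lay between -0.0034 and 0.071. Among elongation genes it was 0.29, against 0.12 in female replicate 3, -0.039 in female replicate 1 and -0.18 to -0.12 in shock. The median SD of a member over 3 arrays was 0.088 in shock and 0.15 in female. Without female replicate 2 the counts were again 4 higher and 6 lower, and 20.2% of all tested genes were called. Leaving out a shock array gave lower counts. Without shock replicate 1 there were 0 higher and 1 lower (1.17% of all tested genes called), without shock replicate 2 there were 0 and 2 (4.96%), and without shock replicate 3 there were 0 and 2 (4.48%). Without female replicate 1 there were 7 and 7 (24.6%), and without female replicate 3 there were 1 and 2 (12.6%).

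**Figure D2:**
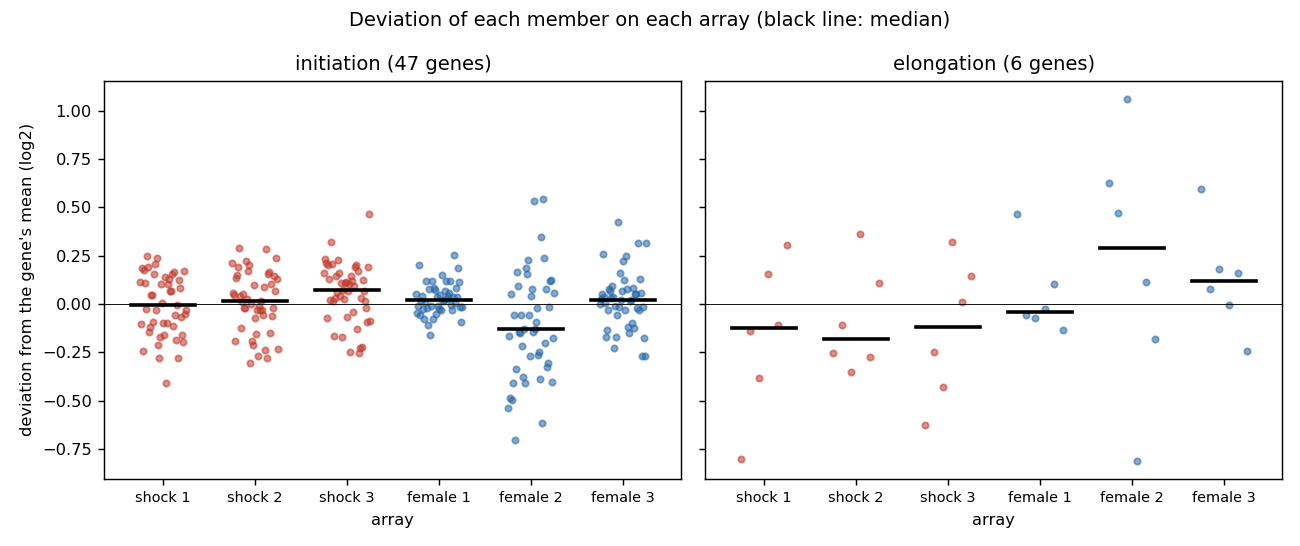
Deviation of each member's RMA value from the mean of its 2 group means (log2, vertical axis) on each of the 6 arrays, for 47 initiation genes (left) and 6 elongation genes (right). Points are genes and black lines are medians; the median of initiation genes is lowest, at -0.13, and that of elongation genes highest, at 0.29, in female replicate 2.

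Among factors of the pre-initiation complex and start codon, Eif2d was higher in shock, Eif1b was lower and the other 7 of 9 did not pass. Eif2d encodes a factor that can place initiator tRNA on the ribosome without eIF2 and that takes part in ribosome recycling (chromosome 1, 131173302 to 131173475, plus strand; the files name no genome build). Its RMA values were 10.06, 10.13 and 10.13 in shock, against 9.74, 9.69 and 9.68 in female. The groups were tight and well apart, with a gap several times the spread within either. The difference was 0.40 with a standard error of 0.09 (limma adjusted p = 0.0198), or 1.32-fold, and it stayed at 0.41 with the 5' to 3' covariate, where it was not called. The call was lost without female replicate 3 and without any 1 of the shock arrays. Of its other probe sets, the one at 0.38 was called too. So was the one at 0.33, which has the same deposited range as the representative and is of the kind that can cross-hybridise. The probe set whose range spans the gene and ends nearest the 3' end was at 0.031 (limma adjusted p = 0.828).

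Eif1b, a close relative of the start-codon selection factor eIF1 (chromosome 9, 120492615 to 120495330, plus strand), had 10.97, 11.02 and 11.14 in shock, against 11.41, 11.26 and 11.47 in female. Every shock array lay below every female array. The difference was -0.34 with a standard error of 0.10 (limma adjusted p = 0.0445), and only the fit without female replicate 2 kept the call among those without 1 array (-0.40, limma adjusted p = 0.0159). The other 7 ranged from -0.24 for Eif6, which keeps free large subunits from joining, to 0.36 for Eif5b, the GTPase of subunit joining. Eif1a and Eif1ax, which encode forms of eIF1A, the factor that works with eIF1 in scanning, had differences of 0.32 and 0.30, and without female replicate 2 both were 0.13. Eif2a, a factor of non-canonical initiation, was at 0.34 with an adjusted p of 0.0964 (limma), and at 0.18 without that array.

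The eIF2 subunit genes did not pass. Eif2s1, which encodes the alpha subunit that the stress kinases phosphorylate, had 9.77, 9.59 and 9.73 in shock, against 9.55, 9.19 and 9.56 in female. The lowest shock array lay just above the highest female array, and the difference of 0.26 (standard error 0.12) had a limma adjusted p of 0.140. Eif2s2, the beta subunit, was at 0.12. Its 6 tested probe sets ran from -0.072 to 0.44, and the one at 0.44 was called (limma adjusted p = 0.0286). The 5 genes of eIF2B, which recharges eIF2 with GTP, lay between -0.18 for Eif2b2 and 0.11 for Eif2b4, and none passed. Eif2b5, its catalytic subunit, was 8.79 ± 0.08 in shock and 8.83 ± 0.07 in female (SD, n = 3), and the 95% interval of its difference ran from -0.25 to 0.18.

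Of the 4 eIF2 kinases 1 passed, Eif2ak3, which was higher in shock. The other 3 had differences of 0.30 for Eif2ak4, 0.26 for Eif2ak1 and 0.12 for Eif2ak2. A second probe set of Eif2ak1, the heme-regulated kinase gene, has the same deposited range and was lower in shock at -0.45 (limma adjusted p = 0.0218), so this gene has no settled direction. Eif2ak3 encodes PERK, the kinase of endoplasmic reticulum stress (chromosome 6, 70844534 to 70905240, plus strand). Its values were 8.47, 8.51 and 8.54 in shock, against 8.19, 7.51 and 8.08 in female. The shock arrays were nearly level, and the female arrays lay below them with replicate 2 by far the lowest. The difference was 0.58 with a standard error of 0.16 (limma adjusted p = 0.0358), 0.37 without female replicate 2 (limma adjusted p = 0.0191) and 0.054 with the 5' to 3' covariate (not called). It lost the call without any 1 of the shock arrays, at 0.56 to 0.60. Its other tested probe set, whose deposited range ends far upstream on the same strand (position 70864825 against 70905240), was at -0.38 with a limma adjusted p of 0.0547. Eif2ak4 encodes GCN2, the kinase that senses uncharged tRNA, and had 8.61, 8.46 and 8.62 in shock, against 8.34, 8.08 and 8.38 in female (limma adjusted p = 0.0851). The groups did not overlap, by a margin under 0.1.

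In eIF3, the largest initiation factor, 2 of 12 subunit genes were lower in shock, none was higher and 10 did not pass. Eif3k, an outer subunit (chromosome 7, 28971372 to 28981890, minus strand), had 9.99, 10.12 and 10.14 in shock, against 10.54, 10.92 and 10.64 in female. The groups were apart by 0.40 at their nearest arrays. The difference was -0.62 with a standard error of 0.12 (limma adjusted p = 0.0123), or 1.53-fold. Eif3k was also the sole member called on the MAS5 intensities, at -0.74 (limma adjusted p = 0.0487), where 1.95% of all tested genes were called. It kept the call in 5 of the 6 fits without 1 array and lost it without shock replicate 1 (-0.57, limma adjusted p = 0.0723). With the 5' to 3' covariate it was -0.30 (not called).

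Eif3b, a core subunit (chromosome 5, 140419307 to 140443363, plus strand), had 7.85, 7.76 and 7.90 in shock, against 8.15, 8.25 and 8.49 in female. All shock arrays lay below all female arrays. The difference was -0.46 with a standard error of 0.11 (limma adjusted p = 0.0246), -0.48 without female replicate 2 and -0.56 with the 5' to 3' covariate (not called). It lost the call without female replicate 3 and without any 1 of the shock arrays. Eif3a, the largest core subunit, had 11.01, 10.98 and 10.89 in shock, against 10.70, 10.37 and 10.72 in female, a difference of 0.36 (limma adjusted p = 0.0544). Its 4 tested probe sets share a deposited range and lay between -0.34 and 0.36, so that this gene has no settled direction. The remaining 9 subunits lay between -0.22 for Eif3d and 0.14 for Eif3f. For Eif3m the deposited table places the probe set on chromosome 1, whereas the promoter table of RefSeq places the gene on chromosome 2, and its difference of 0.13 could be that of a related sequence.

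Of the 10 genes of eIF4F and its partners, 1 was lower in shock and 9 did not pass. Eif4g1 encodes the main scaffold, which joins the cap-binding protein, the helicase and the poly(A)-binding protein that carries the tag in these cells (chromosome 16, 20679848 to 20692883, plus strand). It had 10.83, 10.96 and 10.89 in shock, against 11.36, 11.19 and 11.43 in female. The groups did not overlap. The difference was -0.43 with a standard error of 0.10 (limma adjusted p = 0.0226), and a more upstream probe set gave -0.41 (limma adjusted p = 0.0277), while the third was at -0.074. With the 5' to 3' covariate it was -0.57 (not called), and without female replicate 3 or any 1 of the shock arrays the call was lost. The related scaffold genes Eif4g2, known for cap-independent initiation, and Eif4g3 were at 0.24 and 0.060, neither called.

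Eif4e, the cap-binding subunit, had 10.57, 10.51 and 10.61 in shock, against 10.46, 10.03 and 10.32 in female. Every shock array was above every female array, and the difference of 0.30 (standard error 0.12) did not pass (limma adjusted p = 0.104). It was 0.18 without female replicate 2. Its relatives, which also bind caps, did not pass: Eif4e3 was at 0.42 and Eif4e2 at -0.32, with limma adjusted p of 0.0942 and 0.0628. Each had another probe set called lower in shock, at -0.70 in Eif4e3 and -0.69 in Eif4e2 (limma adjusted p = 0.0116 and 0.0157). The helicase genes Eif4a1 and Eif4a2 were at 0.070 and 0.086, with 95% intervals of -0.16 to 0.30 and -0.18 to 0.35, and the cofactors Eif4b and Eif4h were at 0.13 and -0.051. The genes for proteins that hold eIF4E did not pass either. Eif4ebp1 had 7.38, 7.16 and 7.18 in shock, against 7.43, 7.98 and 7.49 in female, a difference of -0.39 (limma adjusted p = 0.0820) that was -0.22 without female replicate 2. Eif4ebp2, known as the form that prevails in brain, was 8.30 ± 0.21 in shock and 8.47 ± 0.14 in female (SD, n = 3; limma adjusted p = 0.336), and the transporter gene Eif4enif1 was at 0.13.

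Eif5a2 encodes a relative of eIF5A, a factor that carries the modified lysine hypusine and that, despite its name, is known to help elongation and termination (chromosome 3, 28797965 to 28798846, plus strand). It had 10.12, 10.19 and 10.14 in shock, against 9.93, 9.55 and 9.77 in female. All shock arrays lay above all female arrays, and the female arrays were the more spread out. The difference was 0.40 with a standard error of 0.12 (limma adjusted p = 0.0390), 0.30 without female replicate 2 (limma adjusted p = 0.0466) and 0.16 with the 5' to 3' covariate (not called). It lost the call without female replicate 3 and without any 1 of the shock arrays. Eif5a itself was 11.63 ± 0.13 in shock and 11.78 ± 0.08 in female (SD, n = 3), and did not pass (limma adjusted p = 0.316). That difference was -0.15, and on MAS5 intensities it was 0.28 (not called). The other tested probe set of Eif5a, of the kind that can cross-hybridise, was called lower in shock at -0.54 (limma adjusted p = 0.0131). This gene has no settled direction.

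**Figure D3:**
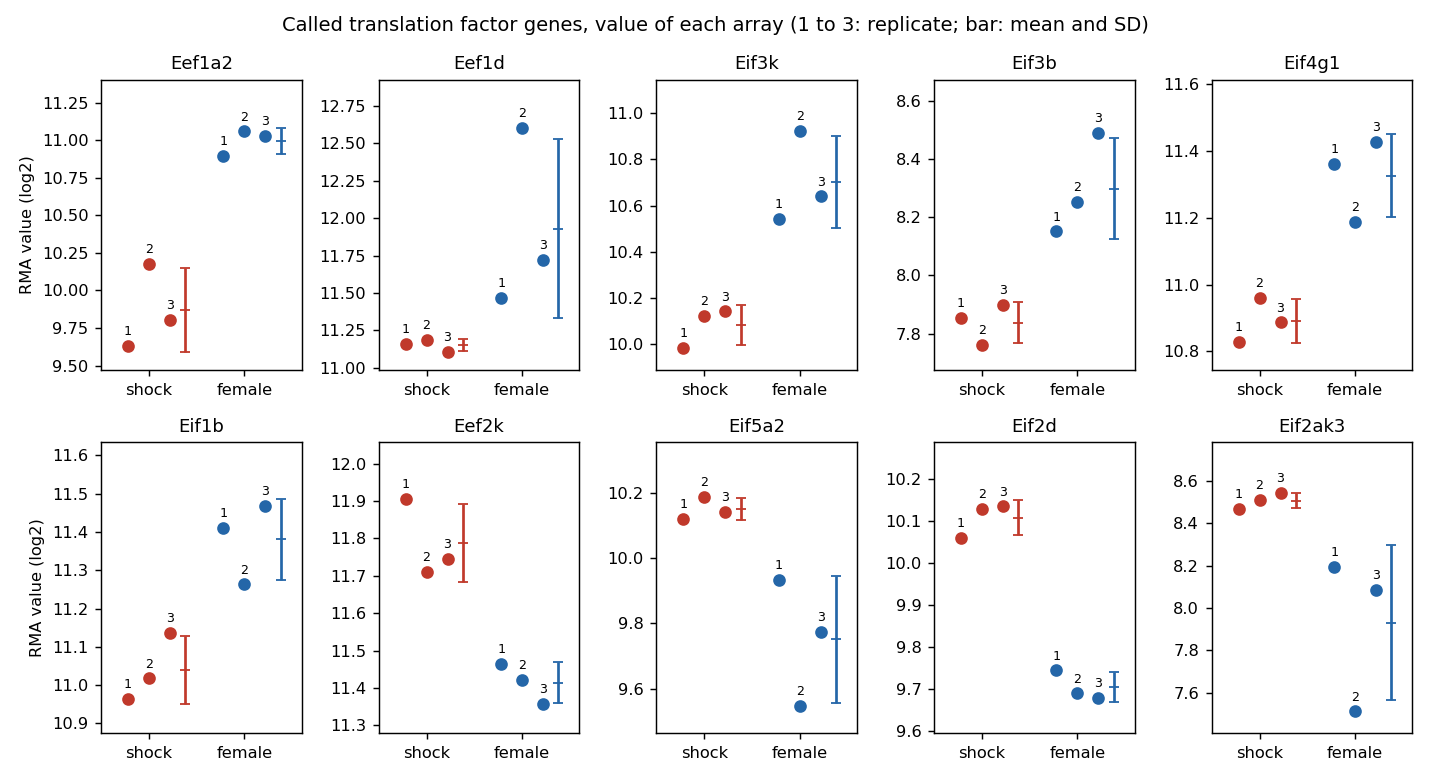
RMA value (log2, vertical axis, a scale of its own in each panel) of the 10 called members on each array, with shock in red on the left and female in blue on the right of each panel. Digits give the replicate number, and bars give mean and SD of 3 arrays. The groups overlap in no panel, and female replicate 2 lies away from the other female arrays in Eef1d (12.60) and Eif2ak3 (7.51).

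Of the 6 elongation genes, Eef1a2 and Eef1d were lower in shock, Eef2k was higher and 3 did not pass. In all 6 the groups did not overlap, against 48.7% of all tested genes, and the gap was only 0.054 in Eef1b2 and 0.092 in Eef2. Eef1a2 changed most among all members. It encodes the form of eEF1A that mature neurons and muscle use (chromosome 2, 181147691 to 181157015, minus strand). Its values were 9.63, 10.18 and 9.81 in shock, against 10.90, 11.06 and 11.03 in female. The female arrays lay close together, and the highest shock array was 0.72 below the lowest of them. The difference was -1.12 with a standard error of 0.14 (limma adjusted p = 0.00401), which is 2.18-fold lower in shock. It was the sole member called in all 6 fits without 1 array, with a limma adjusted p of 0.0457 at most, and it was -1.09 without female replicate 2 (limma adjusted p = 0.00126). On MAS5 intensities it was -0.76 (limma adjusted p = 0.0818), and with the 5' to 3' covariate -0.87 (limma adjusted p = 0.144). In the authors' deposited table, which gives female over shock, the fold of Eef1a2 was 2.30 and its FDR 0.131. Eef1a2 has a single probe set here, so no other one bears on this value.

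In the genes of the eEF1B exchange complex the size of the difference leaned on female replicate 2. Eef1d, its delta subunit (chromosome 15, 75895487 to 75909331, minus strand), had 11.16, 11.19 and 11.11 in shock, against 11.47, 12.60 and 11.72 in female. Female replicate 2 lay 0.88 above the next array, and the groups did not overlap without it either. The difference was -0.78 with a standard error of 0.24 (limma adjusted p = 0.0444), -0.44 without female replicate 2 (limma adjusted p = 0.0143) and 0.087 with the 5' to 3' covariate (not called). The call was lost without female replicate 3 and without any 1 of the shock arrays. A probe set of Eef1d of the kind that can cross-hybridise, with the highest signal of the gene, was at -0.14 (limma adjusted p = 0.449). Eef1b2, another exchange subunit, had 12.47, 12.49 and 12.36 in shock, against 12.55, 13.07 and 12.68 in female. The difference of -0.33 (limma adjusted p = 0.105) was -0.18 without female replicate 2. Eef1e1, which by name belongs here although its product is known as a part of the aminoacyl-tRNA synthetase complex, had 8.93, 9.14 and 9.10 in shock, against 8.75, 7.96 and 8.77 in female, a difference of 0.56 (limma adjusted p = 0.0656) and 0.29 without female replicate 2.

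Of the genes for the translocation factor and its kinase, the kinase gene alone passed. Eef2 (chromosome 10, 81176651 to 81182497, plus strand) had 11.71, 11.54 and 11.82 in shock, against 11.92, 11.93 and 11.97 in female. The groups lay apart by under 0.1, and the difference of -0.25 (standard error 0.11) had a limma adjusted p of 0.109. On MAS5 intensities the difference of Eef2 was -0.085 (limma adjusted p = 0.741). Eef2k encodes the calcium/calmodulin-dependent kinase that phosphorylates eEF2 (chromosome 7, 120903446 to 120904003, plus strand), and had 11.91, 11.71 and 11.75 in shock, against 11.47, 11.42 and 11.36 in female. All shock arrays lay above all female arrays. The difference was 0.37 with a standard error of 0.10 (limma adjusted p = 0.0313), 0.38 without female replicate 2 and 0.33 with the 5' to 3' covariate (not called). The call was lost without female replicate 3 and without any 1 of the shock arrays. The gene's other tested probe sets were at 0.10 and 0.022, neither called, and were far dimmer, with shock means of 7.85 and 7.37. The one at 0.022 ends at 120904000, close to the end of the representative. Whether the representative measures Eef2k alone was not tested.

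Other probe sets of the same gene gave a mixed picture. Of 121 tested probe sets of members, 9 were called higher and 17 lower in shock, or 21.5%. Of the called ones, 1, under the symbol Eif4ebp2, had a group mean under the limit for dim signal, and no representative did. Over all tested probe sets 20.8% were called, 9.31% higher and 11.5% lower. In 17 of the 34 members with more than 1 tested probe set the differences had both signs, against 57.5% of all such genes. The widest gap was in Eif4e3, whose probe sets share a deposited range. The representative gave the 0.42 above, and the other had 8.25, 8.34 and 8.11 in shock, against 8.79, 9.22 and 8.80 in female, a difference of -0.70 (limma adjusted p = 0.0116). Eif4a1 had a representative at 0.070 on chromosome 11 and other probe sets at -0.94 and -0.72 (limma adjusted p = 0.0107 and 0.00640), which the deposited table places on chromosome 1. Whether those measure Eif4a1 cannot be read from the files. Eif4ebp2 had a called probe set at -0.70 beside the representative at -0.17 (limma adjusted p = 0.00607). Another under its symbol, at -0.64, lies on the opposite strand in the deposited table and averaged 6.03 in shock, under the limit for dim signal, and is not read as a change of this gene. In no member were probe sets called in opposite directions. In 11 members that the representative did not call, another probe set was called, lower in shock in 8 and higher in 3. The 8 are Eif2ak1, Eif4a1, Eif4b, Eif4e2, Eif4e3, Eif4ebp2, Eif4h and Eif5a. The 3 are Eif2a at 0.64, Eif2s2 at 0.44 and Eif5b at 0.40. Of the 6 called members with another tested probe set, Eif2d and Eif4g1 had one or more called the same way.

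**Figure D4:**
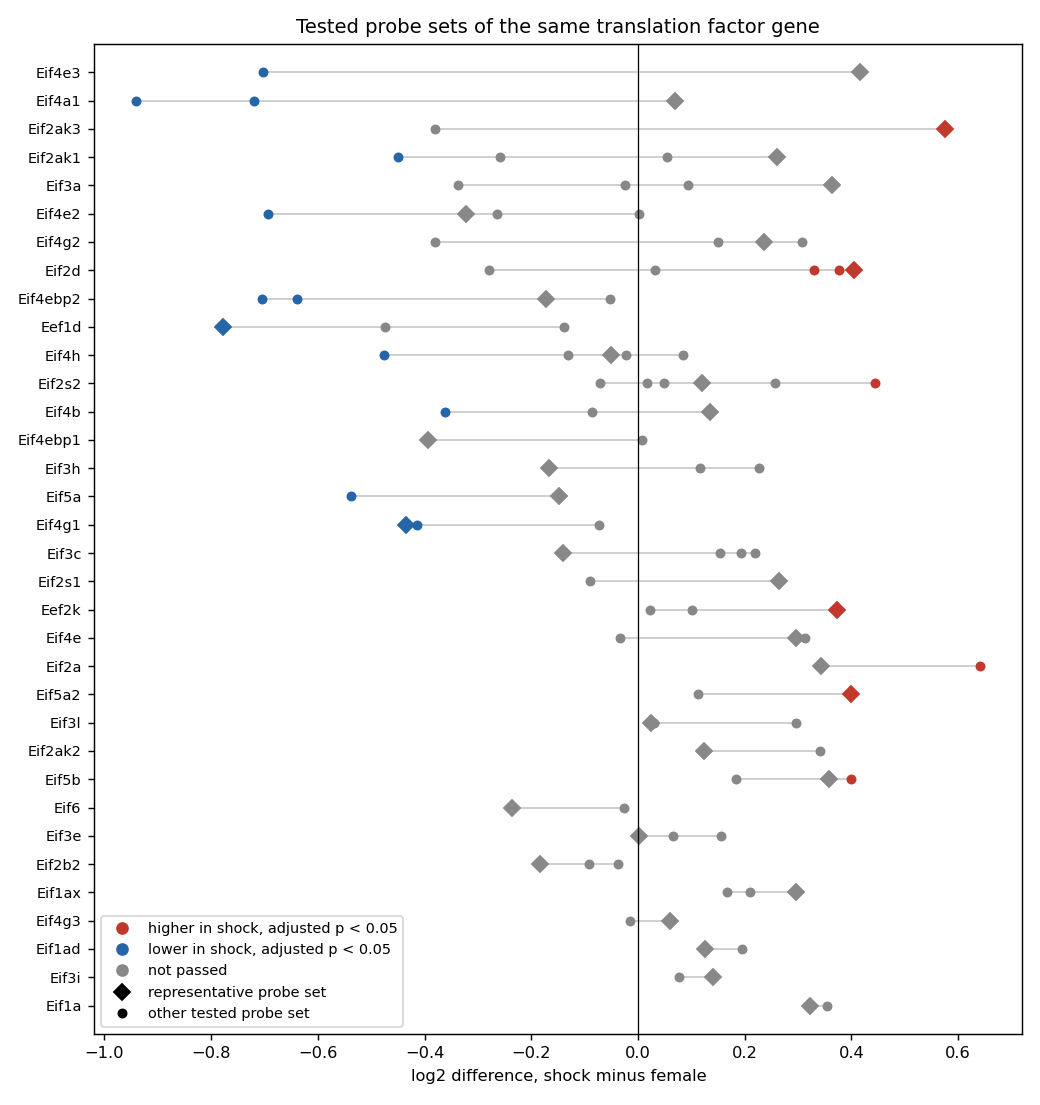
Shock minus female difference (log2, horizontal axis) of every tested probe set in the 34 members that have more than 1, ordered by the gap within a gene. Diamonds are the representative probe sets, circles the others, and colour marks the calls. Eif4e3 spans -0.70 to 0.42 and Eif4a1 -0.94 to 0.070, while Eif1a, at the bottom, spans 0.32 to 0.35.

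The starts of the members' genes were compared because mRNAs of many elongation factors and of some initiation factors begin with a run of pyrimidines, the 5' terminal oligopyrimidine tract, through which mTOR signalling is known to control their translation. Windows from 25 bases before to 25 bases after the RefSeq start (GRCm38.p6, the most upstream start of a gene) are shown for the called members with an entry and for the 4 others with an entry that are on the list of known members of that class. They are written 5' to 3' on the gene's strand, and capitals mark the longest run of C and T. Members lower in shock:
Eef1a2 (chr2:181156991-181157040, minus): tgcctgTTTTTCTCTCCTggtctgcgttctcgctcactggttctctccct
Eif3k (chr7:28981864-28981913, minus): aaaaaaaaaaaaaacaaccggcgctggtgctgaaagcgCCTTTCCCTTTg
Eif3b (chr5:140419280-140419329, plus): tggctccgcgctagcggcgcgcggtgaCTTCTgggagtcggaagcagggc
Eif4g1 (chr16:20672702-20672751, plus): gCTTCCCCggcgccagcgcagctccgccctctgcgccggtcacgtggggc
Eif1b (chr9:120492581-120492630, plus): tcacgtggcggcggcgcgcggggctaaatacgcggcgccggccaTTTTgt
Members higher in shock:
Eif2ak3 (chr6:70844490-70844539, plus): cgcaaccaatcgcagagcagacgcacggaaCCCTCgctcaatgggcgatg
Eif2d (chr1:131153182-131153231, plus): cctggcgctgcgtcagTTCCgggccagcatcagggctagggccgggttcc
Eif5a2 (chr3:28781252-28781301, plus): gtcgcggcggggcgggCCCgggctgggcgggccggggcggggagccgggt
Eef2k (chr7:120842806-120842855, plus): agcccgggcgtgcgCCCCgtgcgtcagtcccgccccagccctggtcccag
Members of the oligopyrimidine class that did not pass:
Eef1b2 (chr1:63176806-63176855, plus): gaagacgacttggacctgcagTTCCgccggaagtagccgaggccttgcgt
Eif4b (chr15:102073748-102073797, plus): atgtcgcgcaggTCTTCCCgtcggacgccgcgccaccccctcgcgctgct
Eef2 (chr10:81176606-81176655, plus): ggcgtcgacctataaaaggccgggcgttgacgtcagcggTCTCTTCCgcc
Eif3f (chr7:108934390-108934439, plus): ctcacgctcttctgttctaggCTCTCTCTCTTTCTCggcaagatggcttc

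Among members lower in shock the longest run was 12 letters in Eef1a2, 11 in Eif3k, 7 in Eif4g1, 5 in Eif3b and 4 in Eif1b, and in the 4 higher in shock it was 3 to 5, so the ranges overlap. In the members of the class it was 15 in Eif3f, 8 in Eef2, 7 in Eif4b and 4 in Eef1b2. A run of 8 or more stood in 9 of the 43 members with an entry, or 20.9%, against 18.7% of 9301 tested genes and 19.4% of all 27025 genes in the table. RefSeq starts can lie some bases off the start used in these cells, so the windows show letters and not tracts in use. Of 9 genes listed as members of the oligopyrimidine class, 7 were members here, with 1 called lower in shock (Eef1d), 6 not passed and a median difference of -0.17, against 0.10 for the other 46. Within the 300 bases of the promoter entries, the E-box CACGTG, which reads the same on both strands, stood in 10 of 43 members, or 23.3%, against 10.2% of tested genes and 7.24% of all genes. Those called were Eef2k and Eif5a2, higher in shock, and Eif1b, Eif3k and Eif4g1, lower, and of all tested genes with the E-box 20.0% were called. The cAMP response element TGACGTCA, also the same on both strands, stood in 1 member, Eef2 (visible in its window), which is 2.33% of the members against 3.27% of tested genes.

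Genes that regulate these factors, or act beside them, were listed from general knowledge. Of 66 listed, 63 were tested, 4 were higher and 7 lower in shock and 52 did not pass. That is 17.5% called against the 20.0% of all tested genes, with a median difference of 0.10. In mTOR signalling, which acts on the eIF4E-binding proteins and on eEF2 kinase, 2 of 19 were higher and 2 lower. Rictor, which belongs to the second mTOR complex, was at 0.54 and Rps6kb1, the S6 kinase gene, at 0.48 (limma adjusted p = 0.0271 and 0.0284), whereas Rps6kb2, the related kinase, was at -0.76 and Akt1s1, an inhibitory subunit of the first complex, at -0.46 (limma adjusted p = 0.0284 and 0.0146). Mtor itself had a difference of 0.027 and did not pass (limma adjusted p = 0.848).

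Among 7 eIF2 phosphatase genes, partners and stress targets, 2 were lower in shock and none higher. Atf5, a transcription factor gene whose translation rises when eIF2 is phosphorylated, had 6.02, 6.06 and 6.04 in shock, against 6.62, 7.20 and 6.75 in female. The shock arrays were level and all below the female ones. The difference was -0.82 (standard error 0.14, limma adjusted p = 0.00912) and -0.64 without female replicate 2. Its shock values lay under the limit for dim signal (6.31), so that it entered the test through the female arrays alone and had to differ. Ddit3, which encodes the stress factor CHOP, was at -0.37 (limma adjusted p = 0.0463) and lost the call without female replicate 2 (limma adjusted p = 0.0549), while Atf4 at -0.17 did not pass (limma adjusted p = 0.247). Among 12 neuronal regulators, the microRNA effector gene Tnrc6a (0.49) and Cpeb2 (0.39), which encodes a protein that binds the cytoplasmic polyadenylation element, were higher, and Fxr2, a relative of the fragile X gene, was lower (-0.73). Cpeb2 lost the call without female replicate 2 (0.33, limma adjusted p = 0.0616). Dohh, which encodes an enzyme that completes hypusine on eIF5A, was lower in shock at -0.53 (limma adjusted p = 0.0175), as was 1 of 9 mitochondrial factors, the elongation factor gene Tsfm at -0.58 (limma adjusted p = 0.0103). None of 7 release and recycling genes and none of 5 poly(A)-binding genes and partners passed. Pabpc1, whose probe set does not tell the tagged from the native transcript apart in the files, was at 0.18 (limma adjusted p = 0.513), and Fos, whose promoter drives the tag, at 0.36 (limma adjusted p = 0.0844).

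The MAS5 intensities gave 47 of the 53 members the same sign as the RMA values, including all 10 that were called. In the authors' deposited table on RMA values no member had an FDR under 0.05. The lowest was 0.119, for Eif2d, which had a fold of -1.36 there, negative where shock is higher. The share of all probe sets with an FDR under 0.05 there was not taken, so this count is not read as particular to the members.

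**Figure D5:**
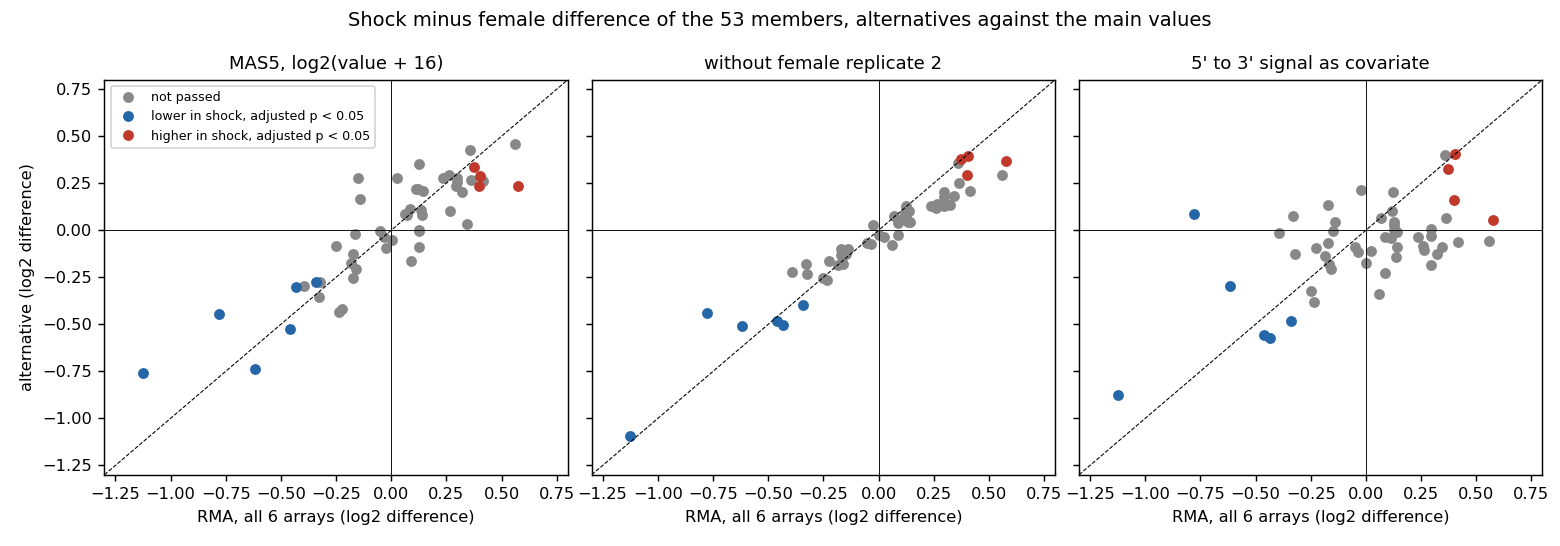
Difference of each of the 53 members, shock minus female (log2), on all 6 arrays (horizontal axes) against its value on MAS5 intensities, without female replicate 2 and with 5' to 3' signal added as covariate (vertical axes, left to right). Colours mark the calls on all 6 arrays, and the dashed line marks equal values. Eef1a2 stays lowest in each panel (-0.76, -1.09 and -0.87), while Eif2ak3 moves to 0.24, 0.37 and 0.054.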

How the data were processed

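RNA of 6 mouse arrays, 3 in shock and 3 in female, was deposited as RMA values on the log2 scale and as MAS5 intensity values on a linear scale, per the labels and the submitters' processing notes. The MAS5 scaling target is not stated in those sources. The authors' deposited tables give group averages (log2), SDs (other values, taken as they stand), a signed linear fold (a score, negative where shock is higher) and p-values with FDR, per the file headers, and they supplied gene symbols and positions.

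Of 45101 probe sets, 64 controls were set apart. Probe sets with a mean above the 40th percentile (an RMA value of 6.31) were kept, which left 27022. Shock minus female was estimated there by lmFit and eBayes of limma 3.58.1 under R 4.3.3, with group as the only term, and adjusted over all of them (2-sided, threshold 0.05). Differences come from this fit unless another is named. MAS5 values entered as log2(value + 16), which understates changes of dim probe sets. The probe set of highest mean stood for a gene, an _x_at one only where there was no other. The 5' to 3' signal used probe sets of a gene 500 to 20000 bases apart by the deposited 3' ends.

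Members and lists were chosen with earlier results of these data known. Full values were given for called members and for members fixed as central to the pathway, and values alone for the rest; of the listed regulators, up to 6 called genes a direction were named, with Pabpc1 and Fos; Ddit3, Atf4 and Mtor were added after their values were seen. The probe sets of Eif3a, Eif2ak1, Eif2d, Eif4e2, Eif4e3, Eif4a1, Eif4ebp2, Eif2a, Eif5b, Eif5a and Eif2s2 were also singled out after their values were seen. Start sequences are those of RefSeq (GRCm38.p6), found for 43 of the 53 members. The fit was tested on simulated data before use. Replicate numbers were checked for pairing: deviations of same-numbered arrays correlated at 0.012, 0.21 and 0.15, and those of other arrays across the groups at -0.21 to 0.12. The values for replicates 2 and 3 were thus the highest, which does not settle whether arrays were paired. The labels name no pairing, so the numbers entered as a block only in an alternative fit.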

Additional observations from a re-analysis of the deposited data

How the results depend on the processing

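The counts of called members, 4 higher and 6 lower in shock, depended on the processing. So did the medians, 0.087 for initiation and -0.29 for elongation. With the 5' to 3' covariate there were 0 and 0, and the medians were -0.070 for initiation and 0.0071 for elongation. On MAS5 values as log2(value + 16) there were 0 and 1, and as log2(value + 1) 0 and 0. With array weights 7 were higher, with probe sets averaged per gene 0 were higher, and with each gene shown by its most variable probe set 13 were lower. The share of all genes called was not taken for these settings, for log2(value + 1) or for the block and other alternatives below. Those counts are therefore not read as particular to the members. The initiation median was 0.043 without female replicate 2 and 0.030 with the most variable probe set. Leaving out 1 array gave 0 to 7 higher and 1 to 7 lower, lowest without shock replicate 1 (0 and 1), then without shock replicates 2 and 3 (0 and 2 each) and female replicate 3 (1 and 2). With the replicate number as a block there were 5 and 6. Not every array correlated best with the one of its own number, and the labels say of the numbers no more than that they are shared. The other alternatives (the filter dropped or raised to the 60th percentile, arrays centred or quantile-normalized again, a robust trended prior, and the most downstream probe set) kept both counts within 1.5 times. The last of these ranked probe sets by deposited position alone. For Eif4ebp2 it took one placed on the opposite strand and for Eif4a1 one placed on another chromosome, so its count includes probe sets that may not measure the gene.

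Over 19 alternatives, the 10 called members stayed called in 115 of 190 fits and changed sign in 2, Eef1d with the covariate (0.087) and Eif2d with the most variable representative (-0.28), a probe set that the files place on the opposite strand and whose shock mean, 6.27, is under the limit for dim signal. Eif2d was at 0.031 with the most downstream probe set. Eif4a1, not called, was called lower with the mean of its probe sets (-0.53), the most variable (-0.94) and the one nearest the 3' end (-0.72), probe sets that the files place on another chromosome. The cause of the other changes was not tested. Arrays give no depth, and probe sets with a group mean under the limit for dim signal entered the test through the other group.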
